A study of Pseudotsuga menziesii with 83 samples.

Results

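Needles of 4 Douglas-fir trees of the Washington Coast seed source were compared between 17 June and 10 March, 99 days apart, in 8 RNA-seq libraries. These are the 17 June and 10 March columns of the Coast trees, matched by tree, out of 46 columns of the count table that were assigned to a tree and date. The June libraries came from trees 10, 12, 68 and 69 after budbreak, and the March libraries from the same trees before budbreak, so that date and budbreak state cannot be told apart. Trees 10 and 69 belong to family WACS-7202 and trees 12 and 68 to family WACS-7205, both from low sites near the Washington coast. Trees of a family are half-sibs. All grew together in a common garden in southern Oregon, outside their home climate, and the needles had formed in the previous growing season. Each library holds the needles of 1 tree on 1 date. The same trees were also sampled on 7 April, when all 4 were before budbreak, and on 6 May, when tree 10 was before and the other 3 were past it. These 8 further libraries place the change in time. The other columns used are of trees from the Oregon Siskiyou and Washington Cascades seed sources, in the same garden. The study describes these origins as warm and dry and as cold and wet. Their March libraries were taken before budbreak and their May and June libraries after it. In April Oregon tree 90 and the Cascades trees were before budbreak, and the other Oregon trees were past it.

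Douglas-fir is an evergreen conifer whose needles stay on the branch for several years. In winter such needles are cold hardy and their photosynthesis is held down, and in spring they lose hardiness, regain photosynthetic capacity and export sugars while new shoots flush and elongate. Needles of the previous year carry this work until the new needles mature. The deposited features carry numbers only, with no gene names or sequences, so no feature could be tied to any of these processes and the tissue could not be checked against marker genes. Features of other organisms that live on needles could not be told apart from those of the tree. A feature could also share reads with a near-identical copy.

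Total counts ranged from 11294027 to 11300675 in the June libraries and from 11293394 to 11300327 in the March libraries, so the deposited totals of the dates were nearly the same. Counts per 1000000 (CPM) below are counts scaled to the library size after adjustment by the trimmed mean of M values (TMM). The TMM factors lay between 0.741 and 0.927 in June and between 0.996 and 1.22 in March. The sequencing layout was not balanced over dates. In June all 4 libraries were on flowcell fc1025, while in March those of trees 10 and 12 were on flowcell fc1022 and those of trees 68 and 69 on fc1025. Each lane held a single date, so lane and date cannot be told apart.

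Rises and falls between the dates were nearly equal in number. Of 29478 features with a median count over 5, out of 90662 in the table, 7053 (23.9%) differed between June and March, with 0.01 as the limit of the adjusted p (edgeR quasi-likelihood test, tree as a block, Benjamini-Hochberg adjustment). In June 3534 features (12.0%) were higher and 3519 (11.9%) were lower. The median log2 change was 1.04 for the rises (quartiles 0.78 and 1.47) and -1.17 for the falls (quartiles -1.73 and -0.83). Over all features tested the median size of change was 0.48 on the log2 scale, with a median standard error of 0.23. In bulk needles, fewer cells of a type and less RNA per cell cannot be told apart. Without tree 12 the count was 3892 and without tree 68 it was 4085. It was 2764 without the block for trees, and 2484 when only libraries from flowcell fc1025 were fitted. The near balance of rises and falls also depends on the count filter. With no filter, 4819 of 79721 features were higher and 4371 lower in June.

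Among large changes, falls outnumbered rises. A log2 change of 1 or more was reached by 4063 of the features called, 1888 higher and 2175 lower in June. Between 2 and 4 on the log2 scale there were 352 rises and 560 falls, and beyond 4 there were 31 rises and 71 falls. Among changes smaller than 1 there were 1646 rises and 1344 falls. This split rests on the scaling. With libraries scaled to the total count in place of TMM, an alternative chosen after the data were seen, 1173 features were higher and 6971 lower in June, and the median log2 change of all features was -0.36, against -0.0031 with TMM. Changes are therefore relative to the median feature.

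Abundance also separated the rises and falls. Of 3941 features with a mean under 1 CPM over the 16 Coast libraries, 106 were higher and 206 lower in June. Of 14288 features between 1 and 10 CPM, 1434 were higher and 1680 lower. At 10 to 100 CPM the order turned, with 1730 of 9710 higher and 1423 lower, and above 100 CPM 264 of 1539 were higher and 210 lower. The share called was 7.92% in the lowest class and 32.5% at 10 to 100 CPM, while the median standard error of the log2 change was 0.43 in the lowest class and 0.16 at 10 to 100 CPM. The called changes were largest in size in the lowest class, with a median of 1.94 on the log2 scale, against 0.89 at 10 to 100 CPM. Over all features tested in these classes the medians were 0.57 and 0.42. With a larger standard error only larger changes pass the threshold, so the sizes of called changes partly follow from the selection.

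**Figure D1:**
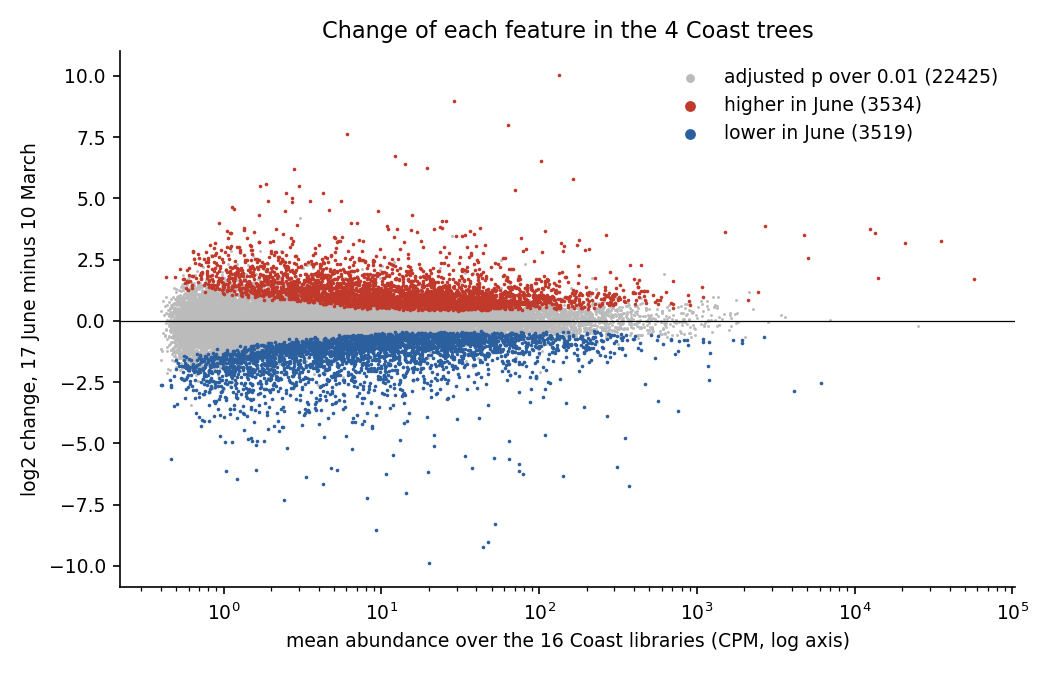
Each point is 1 of 29478 features in the 4 Coast trees, with mean abundance over the 16 Coast libraries (CPM, log axis) and the log2 change from March to June (June minus March). The 3534 features higher in June (red) and the 3519 lower in June (blue) passed an adjusted p of 0.01 in edgeR, and the abundant end at the right holds several rises of more than 3 on the log2 scale.

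The directions in single trees are given as a description, since the test within trees favours features that move alike in all of them. Of the features called, 6911 (98.0%) changed in the same direction in trees 10, 12, 68 and 69, against 15117 (51.3%) of all features tested. Every June library lay above every March library for 2494 of the 3534 rises and for 3492 of all features tested (11.8%). Every June library lay below every March library for 2509 of the 3519 falls and for 3604 of all features tested (12.2%). The remaining 1040 rises and 1010 falls overlapped between dates. The spread between trees was alike on both dates, with a median SD of log2 CPM of 0.37 in June and 0.38 in March.

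Tree by tree, the changes of all 29478 features correlated most between half-sibs. Pearson's r was 0.688 between trees 12 and 68 of family WACS-7205 and 0.678 between trees 10 and 69 of family WACS-7202. Pairs of different families had r between 0.590 and 0.669. These correlations run across features, which are not independent, and the March libraries of each half-sib pair were on different flowcells. A test of the difference in change between families, WACS-7205 minus WACS-7202, called 0 features (0%) with edgeR (1601 had an unadjusted p under 0.05, 17 were called by DESeq2). The difference between trees 68 and 69 and trees 10 and 12, whose March flowcells differed, was also called in 0 features (0%) by edgeR (1097 had an unadjusted p under 0.05, 1 was called by DESeq2). With 2 trees on each side, such counts do not show that the changes were equal.

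The features with the 2 largest rises and the 2 largest falls are given in full. They come from 4980 called features that averaged 50 or more counts over the 8 libraries and moved in the same direction in all 4 trees. Fitted log2 changes of this size depend on the small count that edgeR adds to each library, so ratios of the counts summed over the 4 libraries of a date, divided by the summed TMM-adjusted library sizes, are given with exact 95% intervals. These intervals cover counting error only.

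The feature gene37420 had 528, 570, 423 and 448 CPM in June in trees 10, 12, 68 and 69, against 1.69, 0.357, 0.805 and 0 CPM in March. The 4 June values lay close together, while the March libraries held 22 counts or fewer. The log2 change was 10.03 (standard error 1.23, adjusted p = 2.49e-05 from edgeR), and the adjusted ratio of June to March was 669.5 (95% interval 485.5 to 951.1). On the way, gene37420 had 11.5, 0, 0.616 and 0.0769 CPM in April and 10.6, 23.8, 104 and 4.03 CPM in May in the same order of trees. On the CPM scale, most of its rise therefore lay after 6 May in each tree.

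The feature gene19827 had 62.3, 228, 30.9 and 61.9 CPM in June in trees 10, 12, 68 and 69, against 0, 0.804, 0.0732 and 0.156 CPM in March. Tree 12 was highest on both dates. The log2 change was 8.97 (standard error 1.12, adjusted p = 2.75e-05 from edgeR) and 9.91 without tree 12, and the adjusted ratio of June to March was 398 (95% interval 227.5 to 770.9). In May the value of gene19827 was 47.9 CPM in tree 68, above its June value of 30.9 CPM, whereas it was 0.924 CPM in tree 10 and 2.44 CPM in tree 69. The trees thus differed in when this feature rose.

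The feature gene80206 had 0.12, 0, 0 and 0.202 CPM in June in trees 10, 12, 68 and 69, against 39.5, 65.2, 58.9 and 101 CPM in March. The June libraries together held 3 counts and the March libraries 3348, and the adjusted ratio of March to June was 835 (95% interval 285.5 to 4051). The fitted log2 change was -9.89 (standard error 0.63, adjusted p = 1.18e-07 from edgeR). This feature fell early. Its mean was 11.9 ± 14.4 CPM in April and 2.13 ± 2.17 CPM in May (SD, n = 4), and each tree was lower on each later date.

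The feature gene21372 had 0, 0.215, 0.384 and 0 CPM in June in trees 10, 12, 68 and 69, against 72.0, 27.4, 70.1 and 168 CPM in March. The adjusted ratio of March to June was 543.7 (95% interval 249.6 to 1482), and the log2 change was -9.23 (standard error 0.74, adjusted p = 6.62e-07 from edgeR). Its April mean of 79.7 ± 108 CPM (SD, n = 4) held 239.5 CPM in tree 69, above the March value of that tree. In May gene21372 had 11.8, 2.72, 3.14 and 28.0 CPM, below March in all 4 trees.

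**Figure D2:**
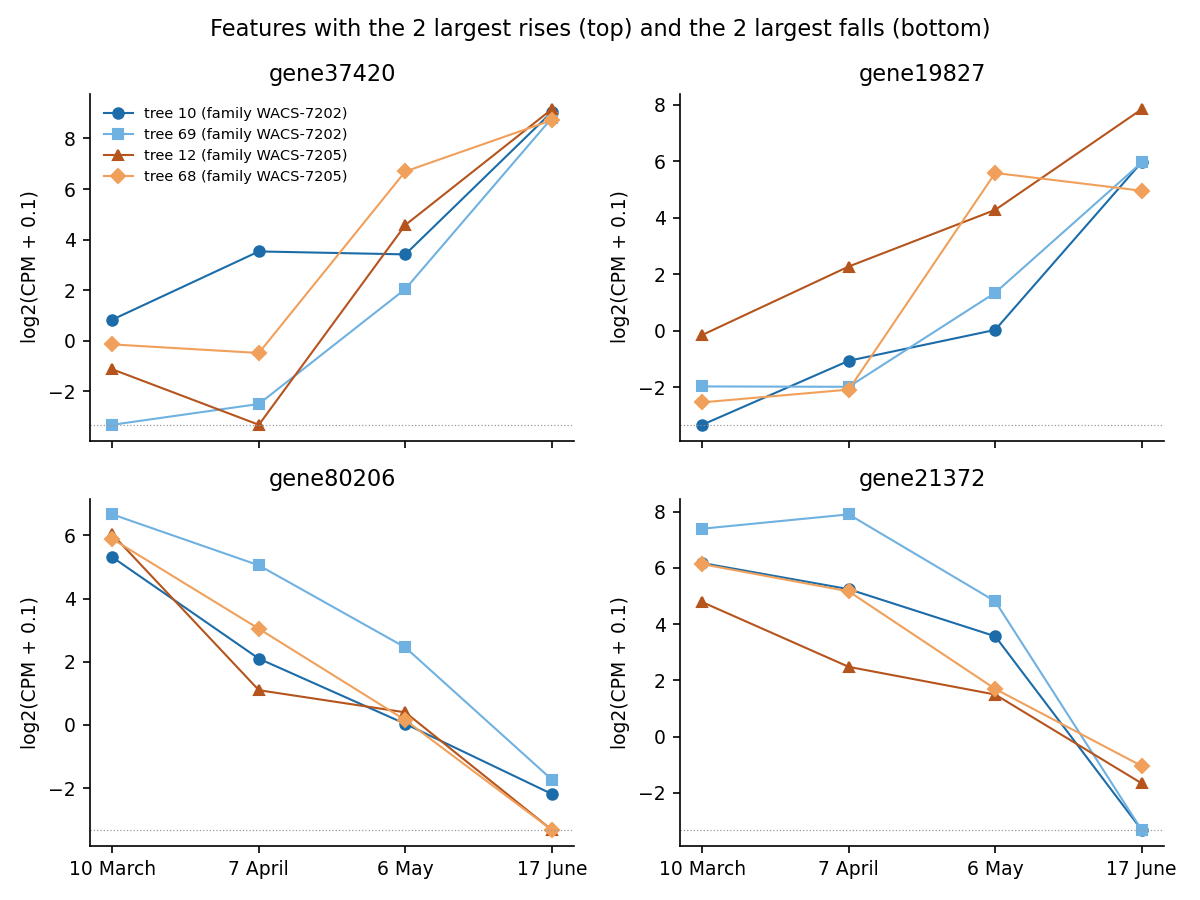
Abundance of gene37420 and gene19827 (top) and gene80206 and gene21372 (bottom) on the 4 dates as log2(CPM + 0.1), with 1 line for each Coast tree and a dotted line at 0 CPM. The rises end between 423 and 570 CPM for gene37420 and between 30.9 and 228 CPM for gene19827, and both falls end below 1 CPM in every June library.

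The same 4 features moved in the same direction in trees of the other seed sources, in a fit of all 46 libraries. The log2 change of gene37420 was 5.73 in the Oregon and 9.10 in the Cascades trees, and that of gene19827 was 6.29 and 8.35. For gene80206 it was -6.76 in the Oregon and -6.82 in the Cascades trees, and for gene21372 it was -5.64 and -7.29. All 8 passed the threshold, with adjusted p between 2.67e-09 and 0.00013 from edgeR. In June gene37420 averaged 492 ± 68.7 CPM in the Coast trees (SD, n = 4), against 124 ± 97.6 CPM in the Oregon trees (SD, n = 4) and 299 ± 213 CPM in the Cascades trees (SD, n = 3). For gene37420 the single trees of the other sources were thus spread more widely around their means. For gene19827 the June mean was 95.8 ± 89.5 CPM in the Coast trees (SD, n = 4). It was 68.1 ± 29.7 CPM in the Oregon (SD, n = 4) and 56.9 ± 59.2 CPM in the Cascades trees (SD, n = 3). The Coast SD was the largest but held tree 12 at 228 CPM. Only in the Cascades trees did the SD exceed the mean.

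The counts of a library were concentrated in fewer features in June. The 50 features with the highest counts summed over the Oregon and Cascades libraries, a set that no Coast library chose, held 38.9%, 37.6%, 33.5% and 36.2% of the counts in June in trees 10, 12, 68 and 69, against 14.3%, 23.8%, 15.7% and 17.2% in March. All June values lay above all March values. The libraries that chose the set came from the same 4 dates, June included, so the choice was not independent of the season. The means were 36.5% ± 2.29 in June and 17.7% ± 4.20 in March (SD, n = 4 each), a difference of 18.8 percentage points (p = 0.0286 in a two-sided exact permutation test, the lowest that 4 libraries against 4 allow). The test exchanges libraries without regard to the tree, although libraries of the same tree correlated, so its p leaves the pairing out of account. In trees 68 and 69, whose libraries of both dates were on flowcell fc1025, the difference was 18.4 percentage points.

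Of the 50 features, 13 were higher and 6 lower in June, beside 12.0% and 11.9% of all features tested, and their median log2 change was 0.24. A group of 7 was picked after the values were seen, for a rise of 3 or more on the log2 scale and a June mean of at least 1000 CPM, so that its larger June share follows from the choice. Its members changed by 3.16 to 3.88 on the log2 scale and had mean levels of 3978 to 78900 CPM in June, against 324.8 to 8587 CPM in March. Together these 7 held 14.4% to 19.2% of the counts of a June library and 1.90% to 3.27% of those of a March library. The most abundant single feature of a library took 7.78% to 8.73% of its counts in June and 2.55% to 5.07% in March. Between 192 and 368 features made up 50% of the counts in June, against 540 to 896 in March, where tree 12 had the lowest value.

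Fewer features were detected in June at nearly equal totals. Features with at least 1 count numbered 46246, 46528, 49442 and 47286 in June in trees 10, 12, 68 and 69, against 51924, 49949, 53976 and 50919 in March. Each June library was below each March library, and tree 68 had the most on both dates. The means were 47376 ± 1446 in June and 51692 ± 1723 in March (SD, n = 4 each), a difference of -4316 features. The same exact permutation test, which again leaves the pairing by tree out of account, gave p = 0.0286. With at least 5 counts as the limit the difference was -3109 features. The share of the abundant features also differed between June and March, and its part in the lower count was not tested. The 2 measures did not move together on every step. From May to June the mean share rose from 28.64% to 36.55%, while the mean number of detected features went from 46612 to 47376.

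Presence on a single date was mostly a matter of very low counts. In all 4 June libraries but in none of the March libraries 93 features were detected, and 371 showed the reverse. The median count per library, taken where they were detected, was 2 in both groups, and 7 and 5 of them reached a median of 10 counts. Only 1 of these features passed the count filter of the test. In all 4 libraries of a date 34589 features were detected in June and 38034 in March, and 32175 on both.

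**Figure D3:**
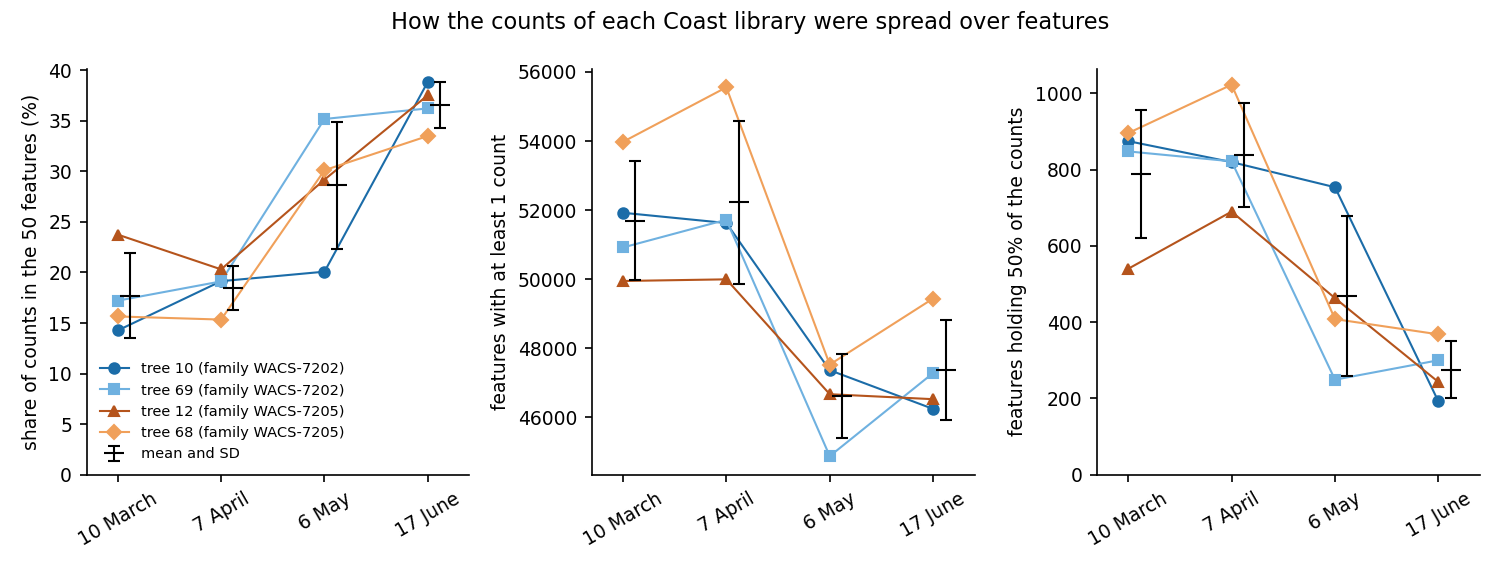
Share of counts held by the 50 abundant features (left, %), features with at least 1 count (middle, axis not starting at 0) and the number of features that hold 50% of the counts (right) in the Coast libraries by date, with 1 line for each tree and the mean and SD (n = 4) in black. In June the shares lie between 33.5% and 38.9%, above all March values, and in May tree 10 stands at 20.1% while the other 3 trees lie between 29.2% and 35.2%.

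In the fit of all 16 Coast libraries, the step with the most calls lay between 7 April and 6 May. By neighbouring dates edgeR called 372 features from March to April (1.26%), 6241 from April to May (21.2%) and 2206 from May to June (7.48%). These were 181 rises and 191 falls, then 3017 rises and 3224 falls, then 1082 rises and 1124 falls. With scaling to the total count the split was 114 and 123, then 672 and 5546, then 538 and 1066. The flowcells also changed along the way. Between March and April every tree changed flowcell, with trees 10 and 12 on fc1025 and trees 68 and 69 on fc1022 in April, and from May on all libraries were on fc1025. A term for the flowcell gave counts of 232, 4062 and 1774. When only libraries from fc1025 were fitted they were 0 (1604 had an unadjusted p under 0.05), 767 and 862. In that smaller fit the step from May to June thus held the most calls. Without tree 10 the counts were 114, 4773 and 1005, and without tree 12 they were 53, 3603 and 364. Without tree 68 they were 24, 2125 and 611, and without tree 69 they were 312, 3791 and 1439. Without the block for trees they were 7, 2090 and 148.

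Features that differed between June and March followed this course as a group. In April the median rise had covered 13.0% of its log2 change to June (quartiles -7.61% and 35.6%) and the median fall 12.2%. In May the medians were 71.4% for rises (quartiles 44.7% and 98.0%) and 68.3% for falls. May lay beyond June for 823 rises (23.3%) and 908 falls (25.8%). These positions share the March and June libraries that chose the features, and are given as a description. The step from April to May shares no library with the comparison of June and March, though the trees and the fit are the same. In that step 1463 of the 3534 rises were called higher in May and 38 lower, and 1461 of the 3519 falls were called lower and 19 higher. Of all features tested, 10.2% were called higher and 10.9% lower in May than in April. No step was called for 1626 rises and 1519 falls.

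Lists called in fits without any Coast library gave the course of each tree. Only features that passed the count filter over all 46 libraries, Coast libraries included, could enter these lists. Among those features, 3267 were called between June and March in the Oregon trees alone and 3356 in the Cascades trees alone. In both sources 1810 were called in the same direction, 896 higher and 914 lower in June. Of these rises 890 were tested in the Coast trees and 840 (94.4%) were called higher in June, beside 12.0% of all features. Of the falls 912 were tested and 858 (94.1%) were called lower, beside 11.9% of all features. None was called in the opposite direction, and all 890 and 912 had the same sign. Over all features tested in the Coast fit and the 46-library fit, 78.62% had the Coast sign in Oregon and 83.95% in Cascades trees. The median log2 change in the Coast trees was 1.24 for the rises and -1.32 for the falls. The libraries of the 3 sources shared lanes on each date.

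Averaged over the 896 rises, the log2 change from March to June was 1.32 in tree 10, 1.49 in tree 12, 1.33 in tree 68 and 1.52 in tree 69. Over the 914 falls it was -1.50, -1.71, -1.56 and -1.67 in the same order. The 4 trees had thus come to like values by June, and they were further apart on 6 May, relative to the change. Tree 10, the only one labelled before budbreak on that date, had covered 61.8% of its rise and 62.4% of its fall, the lowest values of the 4. Tree 12 had covered 66.6% and 69.6%, tree 68 93.1% and 79.3%, and tree 69 65.7% and 70.7%. The gap between tree 10 and its nearest neighbour was thus small for the rises, and a single tree before budbreak allows no test. On 7 April, when all 4 trees were before budbreak, the share covered was 8.77% for the rises and 11.7% for the falls in tree 10, again the lowest, and 15.3% to 29.1% in the other trees.

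**Figure D4:**
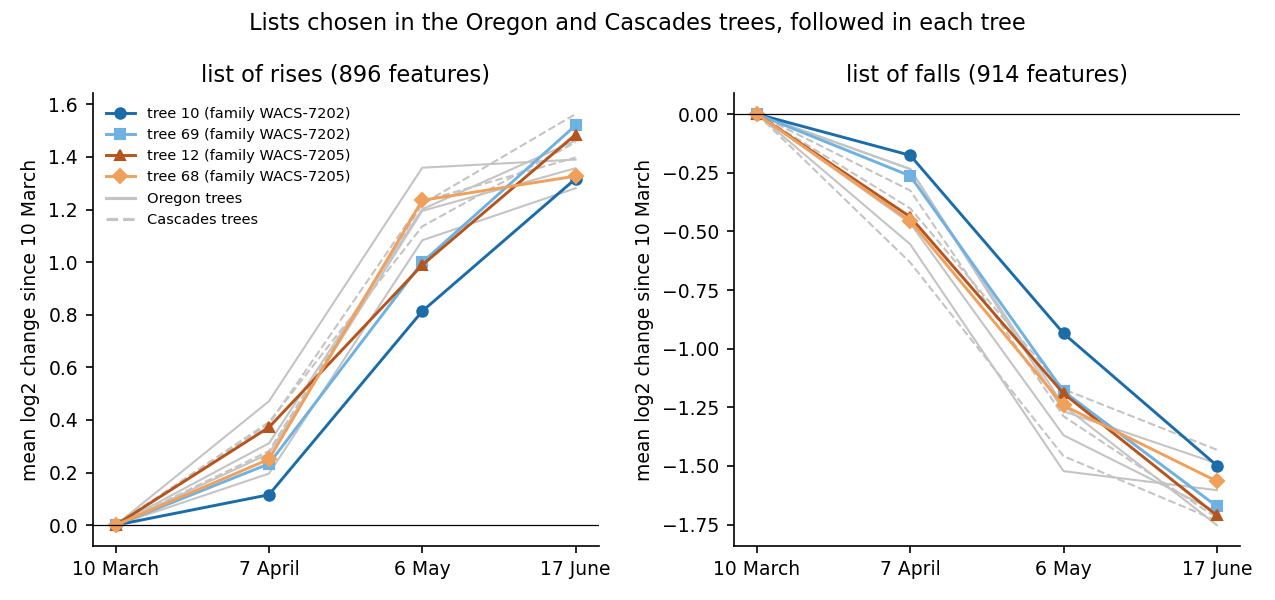
Mean log2 change since 10 March over 896 features that rose (left) and 914 that fell (right) in both the Oregon and the Cascades trees, in each Coast tree (coloured lines), the 4 Oregon trees (grey) and 3 Cascades trees (grey, dashed). In May tree 10 stands at 0.81 and -0.94, closest to 0 of the Coast trees, and by June the Coast trees end between 1.32 and 1.52 on the left and between -1.71 and -1.50 on the right.

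The change in the Coast trees was shared in direction by the other sources. In a fit of all 46 libraries with tree as a block, 6510 of 29189 features (22.3%) differed between June and March in the Coast trees, 5848 (20.0%) in the Oregon trees and 4511 (15.5%) in the Cascades trees, of which 3 trees had both dates. Features called in the same direction in the Coast and Oregon trees numbered 3729, which is 57.3% of the Coast calls and 63.8% of the Oregon calls. In the Coast and Cascades trees 3624 were shared, 55.7% of the Coast calls and 80.3% of the Cascades calls. None was called in opposite directions in either pair. All 3 sources shared 2763 features, 1397 higher and 1366 lower in June.

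Another 1920 of the Coast calls (29.5%) were called in neither other source, and they too leaned the same way there. The rises among them had a median log2 change of 0.94 in the Coast, 0.44 in the Oregon and 0.65 in the Cascades trees, and the falls had medians of -1.16, -0.51 and -0.67. Of the 1920, 1775 (92.4%) had the Coast sign in both other sources. These features were chosen for passing in the Coast trees, which favours the larger Coast values. A test of the difference in change itself called 0 features (0%) for Coast minus Oregon with edgeR (2634 had an unadjusted p under 0.05, 9 were called by DESeq2) and 0 (0%) for Coast minus Cascades (870 had an unadjusted p under 0.05, 0 were called by DESeq2). No feature could therefore be called particular to the Coast trees at this number of trees.

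**Figure D5:**
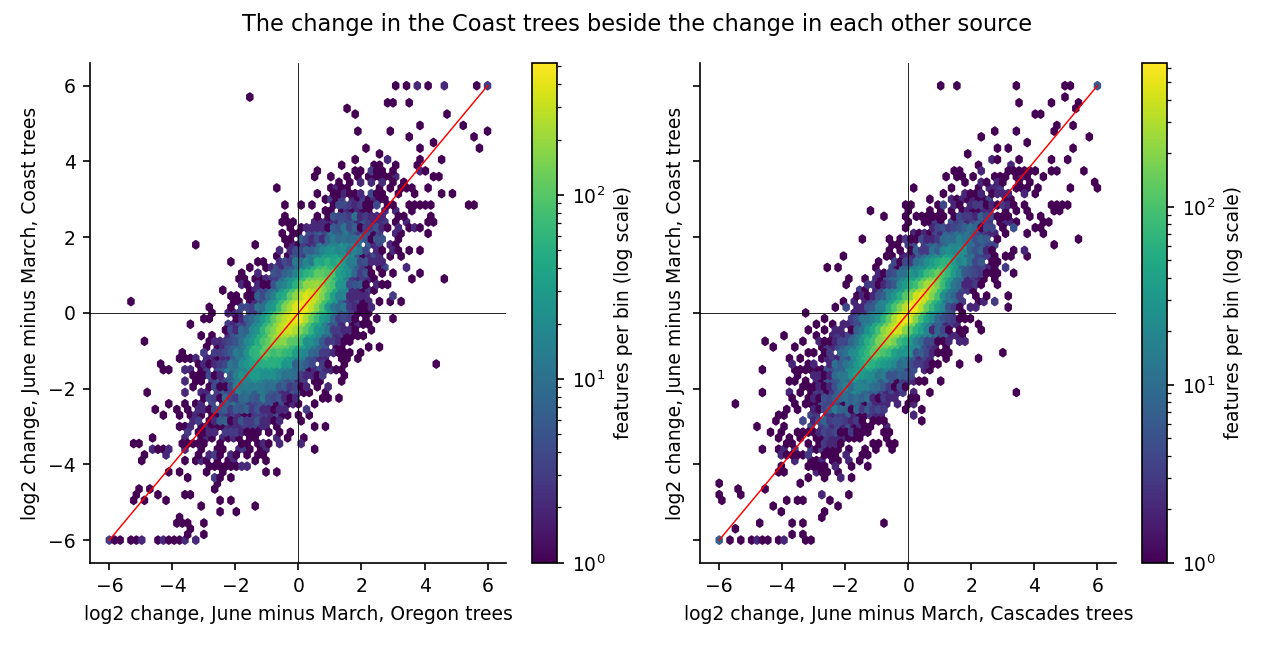
Log2 change from March to June (June minus March) of each of 29189 features in the Coast trees (vertical axis) beside that in the Oregon trees (left) and the Cascades trees (right), as counts of features per bin on a log colour scale, with values beyond 6 drawn at 6 and the line of equal change in red. Features lie along the line in both panels, with Pearson's r across features of 0.773 for Oregon and 0.846 for Cascades.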

How the data were processed

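The authors deposited whole-number read counts for 90662 numbered features in strand-specific single-end RNA-seq libraries. CASAVA 1.8 and Bowtie2 are named in the submitters' processing notes. The study's methods map reads to its pan-transcriptome with BowTie, but the number of features here is not that of its sequences, so which reference and counting tool made this table is unknown. The totals were nearly equal in all libraries, by a step that is not described, and whether it removed precision of deeper libraries was not tested. Of the columns 46 were assigned from the labels, and 1, whose date differs between sources, was not used. Only features whose median count exceeded 5 in the libraries of a fit were tested. The quasi-likelihood test of edgeR 4.0.16 (R 4.3.3) was used after TMM scaling, with Benjamini-Hochberg adjusted p over all features and a limit of 0.01. This test gives no standard error. Those printed are approximate, each the size of the log2 change divided by the square root of the F statistic. The fit held the 16 Coast libraries of the 4 dates with terms for date and tree. The filter and threshold follow the study's methods. Each tree was sampled on every date, and deviations from the date means correlated in 24 of 24 same-tree pairs (mean r = 0.601, 0.404 to 0.751), so the tree entered as a block. Differences between sources were tested in 1 fit of 46 libraries with terms for tree and for source by date. The number of detected features and the share of the 50 abundant features were compared with exact permutation tests, without regard to the tree. Features were named as the 2 largest rises and the 2 largest falls among called features that averaged 50 or more counts and moved the same way in all 4 trees. The comparison, lists and tests were chosen with earlier results of these data known. Tested on simulated data for June against March, edgeR recovered 55 of 200 features changed 2-fold (1 false call among 28965) and 165 of 200 changed 4-fold (1 false call among 29017). Only these 200 features changed in the simulation, against 7053 called in the data, which makes the adjusted p limit stricter in the simulation. The simulated rates therefore do not give the share of real changes that was found. Alternatives included DESeq2 1.42.0, other scalings, filters and thresholds, the flowcell and leaving out each tree.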

Additional observations from a re-analysis of the deposited data

Results flagged for a closer look

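A sample far from the others of its group was looked for in 16 groups of 4 values with Dixon's rule, which flags about 1 in 20 groups by chance, and it marked 2 values. The June level of gene19827 in tree 12, at 228 CPM, stood apart from the other 3 Coast trees (30.9 to 62.3 CPM). Over the 896 features that rose in both the Oregon and the Cascades trees, tree 68 had covered 93.1% of its change to June by 6 May, against 61.8% to 66.6% in the other 3 trees.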

How the results depend on the processing

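The 4 named features kept their direction and passed the threshold under every other setting run, 72 values in all. Fits without the block for trees called 2764 features for June against March (1518 in the 8 libraries alone), 7 for April against March, 2090 for May against April and 148 for June against May. At an adjusted p of at most 0.05 these counts were 11326, 1351, 10839 and 5523, with 2 for the families and 2 for Coast minus Oregon. A log2 change of at least 1 left 4063. DESeq2 called 943 from March to April, 3365 from May to June, 17 between families, 1 between flowcell sets and 9 for Coast minus Oregon. Without a count filter 1885 were called from March to April, 3791 from May to June, 271 between families, 69 between flowcell sets, 383 for Coast minus Oregon and 108 for Coast minus Cascades, from 79721 and 86380 features that include nearly undetected ones, and the cause was not tested. In the libraries of flowcell fc1025 alone, which are fewer, the counts were 2484, 0 (1604 had an unadjusted p under 0.05), 767 and 862. With the flowcell as a covariate 232 were called from March to April and 4062 from April to May. Counts added up per family gave 158 from March to April and 1354 from May to June, and scaling to the total count, chosen after the data were seen, gave 237 from March to April. The cause of these shifts was not tested. Leaving out each tree in turn gave 3892 to 5063 for June against March, 24 to 312, 2125 to 4773 and 364 to 1439 for the 3 steps, 0 to 10 between families and 0 to 4 for Coast minus Oregon. The June minus March difference in detected features was -4615 to -3863 and that in the share of the 50 features 16.9 to 20.5 percentage points. With 3 trees the exact test cannot go below 0.1, and in trees 68 and 69 alone, where the differences were -4084 features and 18.4 percentage points, not below 0.333.

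With 4 trees and nearly equal totals, low features limit the comparison. Under 1 CPM the median standard error was 0.43 on the log2 scale. Of 200 simulated 2-fold changes, placed among features of any abundance with no other feature changed, 55 were recovered. Far more features were called in the data, so that rate does not carry over to them. Features that missed the threshold are not shown to be stable. Trees of 2 families stand for the source, and date, budbreak and lane cannot be told apart.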
